A study of Danio rerio with 6 samples.

Results

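The circadian clock genes of the zebrafish were examined in whole embryos of wildtype and dnajc21 mutant genotype. The dnajc21 gene encodes a J-domain co-chaperone of large ribosomal subunit assembly. Members were all rows of the deposited count table whose gene name is that of a period, cryptochrome, clock, arntl, npas2, nr1d, ror, tef, dbp, hlf, nfil3, bhlhe40, bhlhe41, ciart or casein kinase 1 delta or epsilon gene. This gave 47 of 35197 rows, and 43 of them passed the filter on low counts, among 20229 genes tested. RNA was sequenced at 48 hours post-fertilization from 3 wildtype libraries and 3 libraries of homozygous dnajc21 mutants, with no treatment named, each a pool of 30 to 50 embryos. The wildtype columns carry the name casper, a strain without melanophores and iridophores. The labels describe neither the mutant lesion nor the strain background of the mutants, and clutches are not named, so the p-values rest on variation among these libraries, some of which may be technical. No lighting schedule and no time of day of collection is given in the labels. All 47 names were found in a RefSeq gene table, where arntl1a, arntl1b and arntl2 are listed as bmal1a, bmal1b and bmal2, and cry1aa, cry1ab, cry1ba and cry1bb as cry1a, cry1b, cry3a and cry3b.

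The clock is a feedback loop of transcription. Clock or Npas2 pairs with Arntl, also called Bmal, and activates period and cryptochrome genes through E-box elements, and the Period and Cryptochrome proteins then repress their own activators. A second arm runs through nuclear receptors, in which Ror proteins activate and Nr1d (Rev-erb) proteins repress arntl and other targets, and a further arm through D-box elements, which Tef, Dbp and Hlf activate and Nfil3 represses. In zebrafish most tissues hold a clock that light sets directly, and per2 and cry1aa are known as light-induced genes.

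Counts totalled 8600951 to 11798543 per library. Levels are given as CPM, counts scaled to a common library total after adjustment of the library totals by TMM factors, and fold changes are log2 mutant over wildtype, from edgeR's quasi-likelihood test with Benjamini-Hochberg adjustment over all genes tested. A count of 0 allows up to 3 counts, which is 0.253 to 0.351 CPM depending on the library and covers counting error only. The dnajc21 transcript itself measured 22.6, 24.9 and 30.9 CPM in wildtype replicates 1 to 3 and 16.9, 19.7 and 17.3 CPM in mutant replicates 1 to 3 (log2 fold change -0.55, SE 0.12, adjusted p = 0.00492), so the mutants kept transcript and the groups did not overlap.

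Clock genes moved little and in both directions. Of the 43 tested, 4 were higher in mutants (per3, cry1aa, tefb and nfil3-6) and 2 lower (nr1d2a and rorab). That is 14% of the members, against 11.7% of all genes tested, of which 5.85% were higher and 5.87% lower. The median log2 fold change of the members was 0.07, with a range of -0.88 to 0.57, beside -0.01 over all genes tested. Mutant and wildtype libraries did not overlap in 12 members (27.9%), 8 of them higher and 4 lower, against 30.5% of all genes tested. The shares of called and of separated members were thus near those of the whole table. The calls depended in part on which libraries were used. With mutant replicate 1 left out 3 were called, and likewise 3 with mutant replicate 3 left out. Calls over all genes also fell in these settings, from 2372 to 1454 and 1356, but rose to 2658 without wildtype replicate 1. The cause of these shifts was not tested. The calls of per3 and nr1d2a held under all 16 alternative settings, those of tefb and nfil3-6 under 13 and those of cry1aa and rorab under 11.

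**Figure D1:**
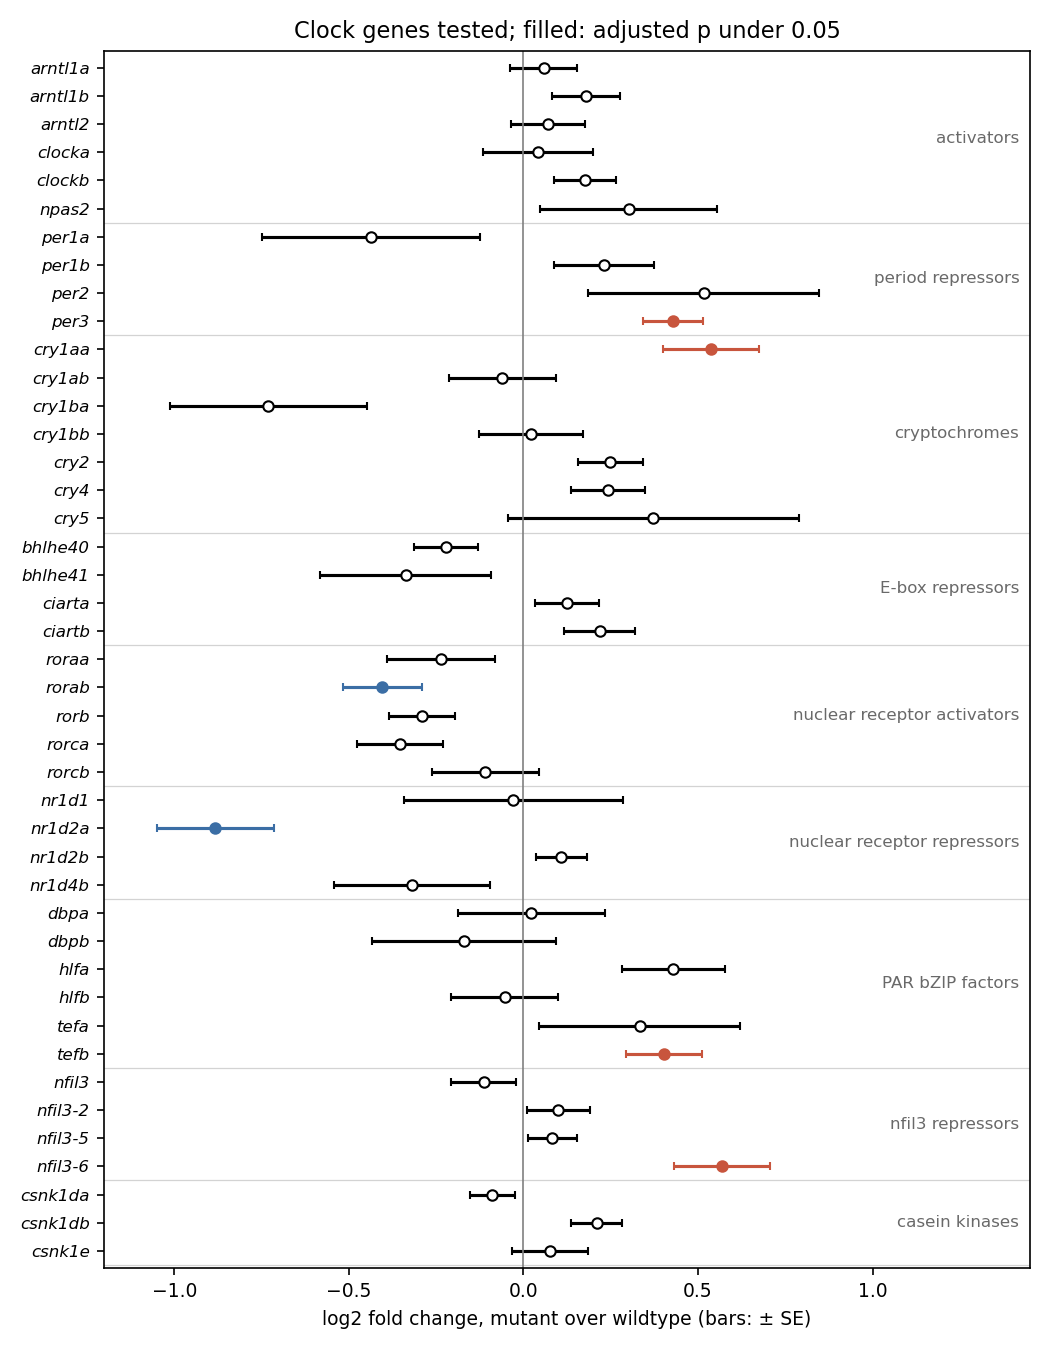
Log2 fold change of mutant over wildtype (x axis, bars ± SE) for the 43 clock genes tested, grouped by role. Filled points are past the threshold of adjusted p under 0.05: per3, cry1aa, tefb and nfil3-6 to the right of 0 and rorab and nr1d2a to the left, while 37 open points did not pass.

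The activators of the loop were close to even between the groups. None of the 6 genes passed the test by edgeR (0 had an unadjusted p below 0.05), nor did any by DESeq2 (0) or limma-voom (0). Their log2 fold changes ran from 0.04 for clocka to 0.30 for npas2 (SE 0.25). All 6 were positive, beside 49.0% of all genes tested. The values of arntl1b, for a Bmal subunit, were 19.9, 19.5 and 19.2 CPM in wildtype replicates 1 to 3 and 21.0, 23.7 and 21.6 CPM in mutants. These groups were apart, but by 0.18 (SE 0.10, adjusted p = 0.267). The other Bmal and Clock genes had overlapping groups, with 0.06 for arntl1a, 0.07 for arntl2 and 0.18 for clockb.

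Among the period genes, whose products repress the activators, per3 rose. It measured 52.9, 41.9 and 48.7 CPM in wildtype replicates 1 to 3 and 60.1, 66.5 and 66.5 CPM in mutant replicates 1 to 3. All mutants lay above all wildtype libraries, with means of 47.8 ± 5.54 and 64.4 ± 3.72 CPM (SD, n = 3 each; log2 fold change 0.43, SE 0.09, adjusted p = 0.00316). The per3 row has non-whole counts in 3 libraries, so some of its reads were divided with other rows. The light-induced gene per2 measured 69.6, 29.9 and 50.0 CPM in wildtype and 72.9, 72.7 and 67.2 CPM in mutants. Its log2 fold change of 0.52 had an SE of 0.33 (adjusted p = 0.430), and wildtype replicate 1 lay among the mutants. For per1b, the values were 55.2, 69.8 and 44.9 CPM in wildtype and 63.9, 69.1 and 66.3 CPM in mutants (0.23, adjusted p = 0.368). Without wildtype replicate 2 the per1b difference was 0.41 and passed (adjusted p = 0.00692). The per1a row held 12 to 24 counts per library and gave -0.44 (SE 0.31, adjusted p = 0.414).

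Of the 7 cryptochrome rows, 1 rose. The gene cry1aa, for a repressor Cryptochrome, measured 63.8, 41.4 and 49.5 CPM in wildtype replicates 1 to 3 and 75.3, 77.2 and 71.2 CPM in mutants. The groups were apart, at 51.6 ± 11.3 and 74.6 ± 3.09 CPM (SD, n = 3; log2 fold change 0.54, SE 0.14, adjusted p = 0.0378). This call ended without wildtype replicate 3 (adjusted p = 0.166) or any 1 mutant (0.0954 to 0.127), and with no filter on low counts (0.0612). The cry1ba values ran the other way, at 60.4, 119 and 97.8 CPM in wildtype and 60.6, 55.0 and 52.0 CPM in mutants. The log2 fold change was -0.73 (SE 0.28, adjusted p = 0.212), and wildtype replicate 1 lay among the mutants. Without that library cry1ba was called, at -0.95 (adjusted p = 6.21e-06), and it was also called without robust weights (0.0273) and by limma-voom (0.0414).

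The remaining cryptochrome rows did not pass. For cry2 the wildtype libraries held 20.0, 22.0 and 19.9 CPM and the mutants 24.2, 24.8 and 24.7 CPM. Its groups were apart by 0.25 (SE 0.09, adjusted p = 0.0952). Values for cry4 (0.24, SE 0.11, adjusted p = 0.156), cry1ab (-0.06) and cry1bb (0.02) lay in overlapping groups. Without wildtype replicate 1, cry4 was called, at 0.38 (adjusted p = 0.0122). The row of cry5, for a photolyase that repairs ultraviolet damage with light, held 16.5, 5.07 and 12.1 CPM in wildtype and 14.6, 15.0 and 13.3 CPM in mutants (0.37, SE 0.42, adjusted p = 0.659). Its counts are non-whole in all 6 libraries and add up to whole numbers with those of foxred1, its neighbour in the RefSeq table, so reads were divided between these rows. The foxred1 row itself ranged only from 12.6 to 14.9 CPM.

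The E-box repressors did not pass either. The log2 fold changes were -0.22 for bhlhe40 (SE 0.09, adjusted p = 0.138) and -0.34 for bhlhe41 (SE 0.25), both for Dec-type repressors, and 0.13 for ciarta and 0.22 for ciartb, for repressors of Clock and Bmal. Groups overlapped in all 4. By edgeR 0 of the 4 were called, 2 having an unadjusted p below 0.05, and limma-voom and DESeq2 likewise gave 0 calls. Without wildtype replicate 3, bhlhe40 passed as lower.

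**Figure D2:**
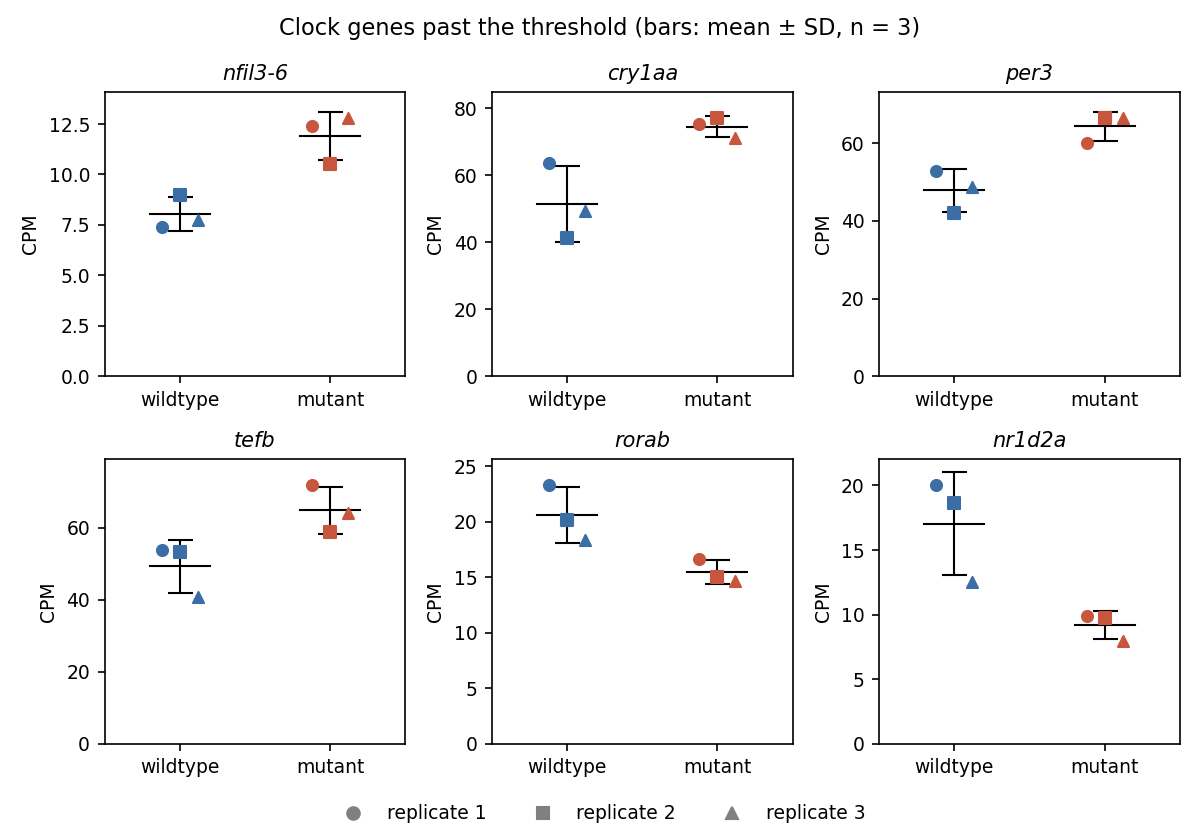
CPM (y axis, from 0) of the 6 clock genes past the threshold in each wildtype and mutant library; the marker shape gives the replicate number and bars are mean ± SD (n = 3). In each panel the 3 mutant points lie all above or all below the 3 wildtype points, for example 60.1 to 66.5 against 41.9 to 52.9 CPM for per3.

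The nuclear receptor arm held the largest difference among the members tested. The gene nr1d2a, for a Rev-erb beta type repressor, measured 20.0, 18.6 and 12.5 CPM in wildtype replicates 1 to 3 and 9.86, 9.72 and 7.95 CPM in mutants. All mutants lay below all wildtype libraries, at 9.18 ± 1.07 against 17.1 ± 3.98 CPM (SD, n = 3; log2 fold change -0.88, SE 0.17, adjusted p = 0.00311). Its copy nr1d2b had overlapping groups, with 75.8, 73.9 and 67.7 CPM in wildtype and 83.3, 75.9 and 75.0 CPM in mutants (0.11, SE 0.07, adjusted p = 0.383). The nr1d1 row held 17 to 32 counts per library (-0.03, SE 0.31), and nr1d4b gave -0.32 (SE 0.22, adjusted p = 0.404).

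All 5 ror genes tested had negative values, where 49.0% of all genes tested were positive. Of the 5, 1 passed (20%, against 11.7% of all genes tested). The rorab levels, for a Ror alpha receptor, were 23.3, 20.2 and 18.3 CPM in wildtype and 16.7, 15.0 and 14.7 CPM in mutants (log2 fold change -0.40, SE 0.11, adjusted p = 0.0275). The groups were apart, but the call ended without wildtype replicate 1 (adjusted p = 0.0884) or any 1 mutant (0.0518 to 0.129), and with DESeq2 (0.0977). For rorb, known from retina and brain, wildtype libraries held 63.2, 71.3 and 56.8 CPM and mutants 58.5, 50.1 and 47.7 CPM (-0.29, SE 0.09, adjusted p = 0.0579). It was called with the replicate number as a block (0.0232), with no filter on low counts (0.0328), without wildtype replicate 3 (0.0212) and without mutant replicate 1 (0.0301). The rorca row had 18.8, 19.3 and 22.4 CPM in wildtype and 16.3, 18.1 and 13.2 CPM in mutants, which were apart by -0.35 (SE 0.12, adjusted p = 0.0718; 0.0465 with no filter on low counts). Values for roraa (-0.24) and rorcb (-0.11) lay in overlapping groups. In whole embryos a lower level can come from fewer cells of a type or from less RNA per cell, and these cannot be told apart here.

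On the D-box arm, 1 activator and 1 repressor gene rose. The tefb levels, for a PAR bZIP activator, were 53.9, 53.2 and 40.7 CPM in wildtype and 71.9, 58.9 and 64.0 CPM in mutants, apart by 0.40 (SE 0.11, adjusted p = 0.0296). This call ended without wildtype replicate 3 (adjusted p = 0.0600) or mutant replicate 1 (0.113) or 3 (0.0930). The nfil3-6 row, for a bZIP repressor of the Nfil3 family, held 7.37, 8.97 and 7.74 CPM in wildtype and 12.4, 10.5 and 12.8 CPM in mutants (0.57, SE 0.14, adjusted p = 0.0115). It did not pass without mutant replicate 1 (adjusted p = 0.0556) or 3 (0.0677), or with DESeq2 (0.0574). The values of hlfa were 7.26, 7.70 and 7.46 CPM in wildtype and 11.04, 10.7 and 8.42 CPM in mutants. Its groups were apart by 0.43 (SE 0.15, adjusted p = 0.0681; called without mutant replicate 3, at 0.54 and 0.0451), on a row with non-whole counts in 3 libraries.

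The other D-box genes had overlapping groups. They were hlfb (log2 fold change -0.05), dbpa (0.02), dbpb (-0.17), nfil3 (-0.11), nfil3-2 (0.10) and nfil3-5 (0.08). The tefa gene, whose zebrafish transcript is known to be light-induced, measured 120, 58.8 and 98.2 CPM in wildtype and 120, 114 and 113 CPM in mutants (0.33, SE 0.29, adjusted p = 0.560). As with per2 and cry5, wildtype replicate 2 was the low library.

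The casein kinases, which phosphorylate Period proteins and so time their turnover, did not pass. For csnk1db the wildtype libraries held 91.3, 80.8 and 97.3 CPM and the mutants 103, 106 and 103 CPM, apart by 0.21 (SE 0.07, adjusted p = 0.0724). Without wildtype replicate 3, csnk1db was called, at 0.28 (adjusted p = 0.0357). Values were -0.09 for csnk1da (SE 0.07) and 0.08 for csnk1e (SE 0.11). The csnk1e counts add up to whole numbers with those of the neighbouring tmem184ba, so reads were divided between these rows. The 4 members that failed the low-count filter were nfil3-3, with 2 to 6 counts per library, nfil3-4, with 1 count in mutant replicate 2 and 0 elsewhere, rorc, with 2 counts in each of mutant replicates 1 and 3 and 0 elsewhere, and nr1d4a. The nr1d4a row held 15, 18 and 10 counts in wildtype and 9, 5 and 3.28 in mutants, and was not tested.

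Several clock genes, light-induced ones among them, spread widely over the wildtype libraries. Wildtype replicate 2 lay below replicates 1 and 3 by 1.39 for cry5, 0.97 for per2 and 0.88 for tefa on the log2 CPM scale, and above them by 0.63 for cry1ba and 0.48 for per1b. The highest wildtype library held 3.26 times the lowest for cry5, 2.33 times for per2 and 2.04 times for tefa. In mutants these ratios were 1.13, 1.08 and 1.06. These 3 genes were picked for description after their values were seen. The cry5 reads were divided with foxred1, which held 13.3, 12.8 and 14.9 CPM in wildtype replicates 1 to 3 and 12.6, 14.6 and 13.3 CPM in mutants. The part of that division in the cry5 spread was not tested. With the rows of cry5 and foxred1 summed the log2 fold change was 0.16, and the spread of the sum was not computed. Among the 14404 tested genes that averaged 5 CPM or more, 36 had a larger SD of log2 CPM over the wildtype libraries than cry5 (0.83), 96 a larger one than per2 (0.61) and 159 a larger one than tefa (0.53). Over the mutant libraries their SDs were 0.09, 0.07 and 0.05, beside a median of 0.09 for those 14404 genes. Without wildtype replicate 2 the log2 fold changes fell to 0.02 for cry5, 0.25 for per2 and 0.09 for tefa, none of them called. The called genes per3, nr1d2a, cry1aa, tefb, nfil3-6 and rorab were all called without that library.

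**Figure D3:**
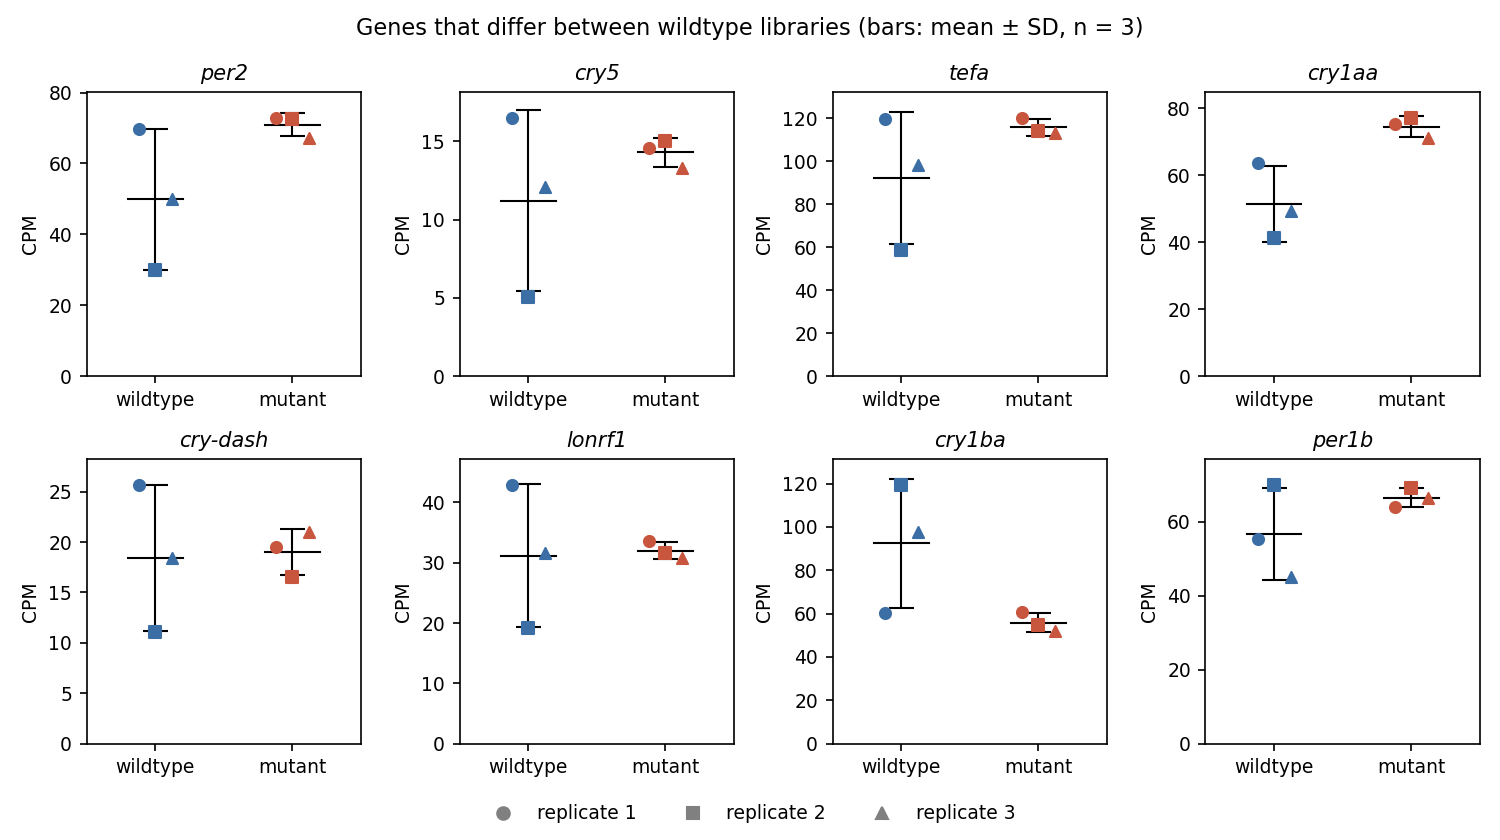
CPM (y axis, from 0) of 6 clock genes and of cry-dash and lonrf1 in each library; marker shape gives the replicate number and bars are mean ± SD (n = 3). Wildtype replicate 2 (square) is the lowest wildtype point for per2, cry5, tefa, cry1aa, cry-dash and lonrf1 and the highest for cry1ba and per1b, while mutant points lie closer together than wildtype points in each panel.

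Over all members averaging 5 CPM or more, the wildtype SD was larger than the mutant SD in 30 of 36 (83.3%), beside 65.9% of the 14404 genes at that level. The median wildtype SD of these members was 0.18 and the median mutant SD 0.09 on the log2 scale, and over the 14404 genes the medians were 0.12 and 0.09. Members share libraries and are not replicates, so these shares are a description with no test. Among members tested at any level, all 7 cryptochromes had the larger SD in wildtype. So did all 3 casein kinases and all 4 nuclear receptor repressors, but only 3 of 6 activators.

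**Figure D4:**
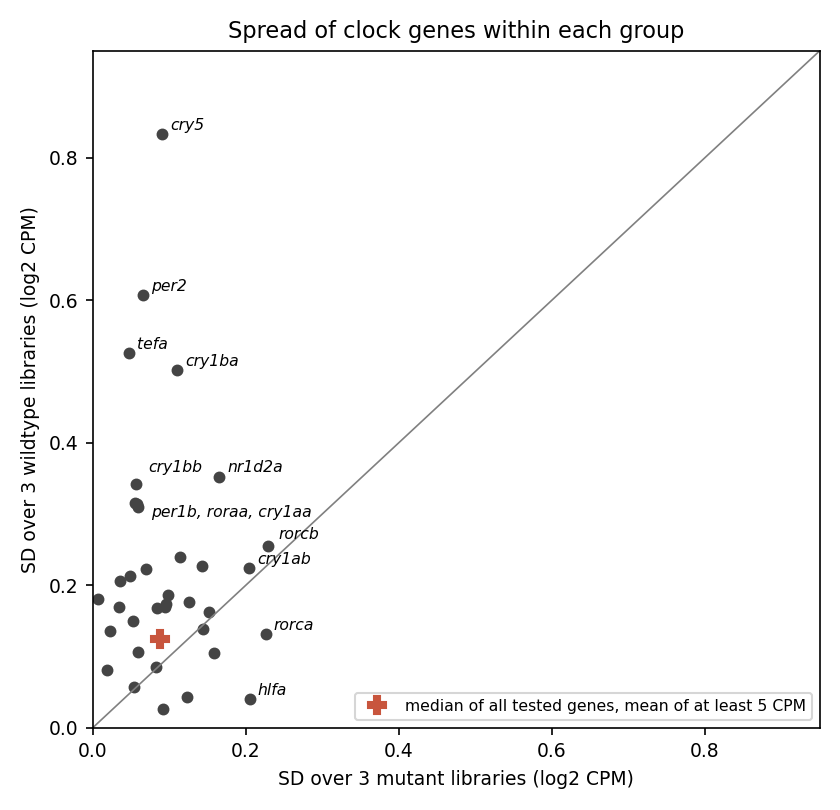
SD of log2 CPM over the 3 wildtype libraries (y axis) against that over the 3 mutant libraries (x axis) for the 36 clock genes averaging 5 CPM or more; the line marks equal SD and the cross the medians over 14404 genes. In 30 of 36 the point lies above the line, with cry5 at 0.83 against 0.09.

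Wildtype replicate 2 was the lowest wildtype library for 8 of the 10 genes tested in the list of light-induced repair genes and photolyases (80%), for 13 of the 43 clock genes tested (30.2%) and for 32.8% of all genes tested. The exceptions in the list were cat and ercc1. This comparison was not planned, the list was chosen with earlier results of these data known, and its genes share libraries. These shares are thus a description with no test. The genes given here with every library were picked after their values were seen. The cry-dash gene, for a photolyase-like cryptochrome, measured 25.6, 11.1 and 18.4 CPM in wildtype and 19.5, 16.6 and 21.0 CPM in mutants (log2 fold change 0.07, adjusted p = 0.928). For lonrf1, of a ring-finger protein, the values were 42.8, 19.1 and 31.6 CPM in wildtype and 33.5, 31.5 and 30.9 CPM in mutants (0.05, adjusted p = 0.948). The damage-recognition gene ddb2 held 16.4, 9.55 and 11.97 CPM in wildtype and 16.8, 14.4 and 17.2 CPM in mutants (0.37, adjusted p = 0.163). The mutants lay inside the wildtype range for cry-dash and lonrf1, and the groups overlapped for ddb2. Of the 10 genes, 0 were higher and 2 lower (20%, against 5.87% of all genes tested). The translesion polymerase gene polh fell from 16.5 ± 2.74 to 10.7 ± 1.40 CPM (-0.63, adjusted p = 0.00706), and the catalase gene cat from 30.2 ± 0.518 to 23.7 ± 1.17 CPM (-0.35, adjusted p = 0.0133). Without mutant replicate 3 both calls ended (0.0600 for polh and 0.0802 for cat), and without wildtype replicate 1 the list had 4 calls. The cat call also ended without mutant replicate 1 (adjusted p = 0.0721) and with DESeq2 (0.0691).

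Several clock genes come as pairs of copies from the fish genome duplication, and the copies could be compared within a library as the share of a pair's counts. The groups did not overlap in 6 of 14 pairs (42.9%). The share for pairs outside the clock was not computed, and levels of single genes did not overlap in 30.5% of all genes tested. The nr1d2a copy took 18.9% ± 2.85 of the nr1d2 counts in wildtype and 10.5% ± 0.892 in mutants (SD, n = 3), while the sum of both copies was 89.5 ± 8.23 and 87.2 ± 5.32 CPM. The wildtype library nearest to the mutants was replicate 3 at 15.6% (exact Clopper-Pearson 95% interval 13.3 to 18.2), and the nearest mutant was replicate 2 at 11.4% (9.29 to 13.7). Pairs with separated shares were also nr1d4a, at 23.5% ± 8.47 in wildtype and 11.5% ± 3.22 in mutants, and per1a, at 3.52% ± 0.617 and 2.25% ± 0.436. The csnk1da copy took 66.4% ± 1.93 in wildtype and 61.6% ± 1.26 in mutants, cry1aa 83.6% ± 3.52 and 88.8% ± 1.88, and hlfa 45.6% ± 4.98 and 53.8% ± 1.88. The 95% intervals of the nearest wildtype and mutant libraries overlapped in each of the 6 separated pairs, the nr1d2 pair included. For nr1d4a, which failed the low-count filter, they were 7.88 to 27.3 (wildtype replicate 3) and 6.53 to 24.7 (mutant replicate 1). For cry1aa they were 82.9 to 88.6 and 84.5 to 89.0 (replicate 3 of each group). In each of the 6 separated pairs the lack of overlap itself fixed the exact two-sided permutation p at 0.10. That is the smallest that 3 against 3 libraries allow (0.233 adjusted over 14 pairs), so the test added nothing and could not pass the threshold. The tefa share was 68.9%, 52.5% and 70.7% in wildtype replicates 1 to 3 and 62.6%, 66.0% and 63.9% in mutants (exact permutation p = 1). Its lowest value, in wildtype replicate 2, had an interval of 49.5 to 55.4. Intervals cover counting error only.

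**Figure D5:**
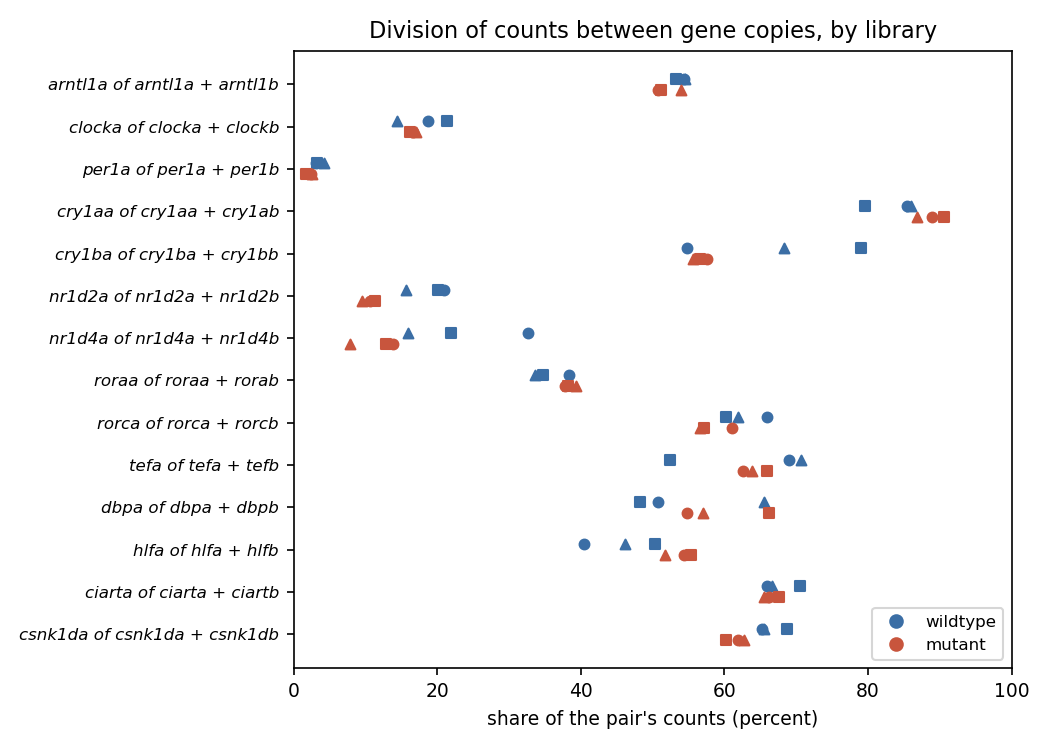
Share of a pair's counts held by the first named copy (x axis, percent) in each wildtype and mutant library; marker shape gives the replicate number. The nr1d2a share lies at 15.6% to 20.9% in wildtype and 9.58% to 11.4% in mutants, and the tefa and cry1ba shares spread in wildtype and cluster in mutants.

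Among genes that act on the clock proteins, usp2b alone passed of 25 turnover and partner genes (4%, against 11.7% of all genes tested). The usp2b gene encodes a deubiquitinase whose mouse counterpart acts on clock proteins, and measured 8.07, 11.6 and 8.01 CPM in wildtype and 18.5, 16.1 and 17.7 CPM in mutants. The groups were far apart (log2 fold change 0.91, SE 0.14, adjusted p = 0.000360), and the call held under all 16 alternatives. The list median was 0.006. Of 20 corepressor and coactivator genes, 4 were higher (20%, against 5.85% of all genes tested) and 0 lower, with a median of 0.07. Like the other lists here, this one was chosen with earlier results of these data known, so its share is a description with no test. The called genes were all higher. They were nrip1b (0.35), for a nuclear receptor corepressor, kmt2a (0.30), for a histone methyltransferase, sin3aa (0.30), for a corepressor scaffold, and ep300b (0.22), for an acetyltransferase. With mutant replicate 2 left out 1 of this list passed, and likewise 1 with mutant replicate 3 left out.

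Glucocorticoid signalling is a route by which clocks outside the brain are set. Of 13 genes tested in that list, 5 were higher, or 38.5%, against 5.85% of all genes tested, and 0 were lower, with a median of 0.25. The list was chosen with earlier results of these data known, so this share is a description with no test. Mutants held 59.1 ± 7.56 CPM of the gluconeogenic gene pck1 and wildtype 20.4 ± 4.95 CPM (difference of 1.55 on the log2 scale, SE 0.18, adjusted p = 0.00229). For klf9, a glucocorticoid-induced and rhythmic transcription factor gene, wildtype libraries held 8.19, 12.6 and 8.75 CPM and mutants 18.8, 14.02 and 18.2 CPM (0.79, SE 0.16, adjusted p = 0.00523). The pck1 and klf9 calls held under all 16 alternatives. The phosphatase gene dusp1 (0.32), tsc22d3, for the leucine zipper protein Gilz (0.27), and cebpd (0.35) also rose, and tsc22d3 counts were non-whole in each of the 6 libraries. The cebpd call ended under 7 of 16 alternatives, among them limma-voom (adjusted p = 0.0610) and the replicate number as a block (0.120), and its value was 0.25 without wildtype replicate 3. Without mutant replicate 3 the list had 2 calls. The receptor gene nr3c1 gave 0.02 (adjusted p = 0.901). For the feedback gene fkbp5 the groups were apart, at 0.64, but it did not pass (SE 0.17, adjusted p = 0.0676).

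Of 18 immediate early genes tested, 3 were higher (16.7%, against 5.85% of all genes tested) and 0 lower, with a median of 0.19. They included dusp1, which is also in the glucocorticoid list. The AP-1 gene fosl2 rose from 8.94 ± 1.82 to 14.7 ± 0.516 CPM (log2 fold change 0.72, adjusted p = 0.00290) and the stress-induced atf3 from 9.98 ± 0.528 to 14.9 ± 3.69 CPM (0.58, adjusted p = 0.0291). The atf3 call ended under 7 of 16 alternatives, among them DESeq2 (0.0543) and limma-voom (0.0733), and the value was 0.37 without mutant replicate 3. The count was 6 with the replicate number as a block, 5 without mutant replicate 1 and 1 without mutant replicate 3. Among 20 output genes of cell cycle and metabolism, 0 were higher and 3 lower (15%, against 5.87% of all genes tested), with a median of 0.03. These were the purine genes pnp4a (-0.39) and gart (-0.28) and dhrs13l1 (-0.52), for a short-chain dehydrogenase. None of the 3 passed without wildtype replicate 3, mutant replicate 1 or mutant replicate 2, or by DESeq2. The checkpoint kinase gene wee1, a known clock output, gave 0.17 (adjusted p = 0.269).

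The pineal organ is the light-sensing gland that makes melatonin at night, and some genes of its list were lower. Of 12 tested in the melatonin list, 0 were higher and 3 lower (25%, against 5.87% of all genes tested), with a median of 0.009. The homeobox genes crx and otx5 act in pineal and retinal photoreceptors, and these sites cannot be told apart in whole embryos. The crx levels were 37.2, 35.2 and 29.9 CPM in wildtype and 16.7, 13.2 and 12.4 CPM in mutants, far apart (log2 fold change -1.26, SE 0.12), and the call held under all 16 alternatives. The otx5 levels were 44.9, 45.5 and 29.3 CPM in wildtype and 23.8, 20.0 and 18.4 CPM in mutants (-0.93, SE 0.20, adjusted p = 0.0270). The otx5 call ended with no filter on low counts and on leaving out any of wildtype replicates 1 and 2 and mutant replicates 2 and 3 (adjusted p of 0.0631 to 0.0968). The third gene was asmtl (-0.43, adjusted p = 0.0460). Without any 1 of wildtype replicates 1 and 2 and mutant replicates 2 and 3, the list had 1 call.

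Neither aanat2 nor exorh of the melatonin list passed. The melatonin enzyme gene aanat2 held 1.64, 1.66 and 1.38 CPM in wildtype and 1.77, 1.23 and 1.496 CPM in mutants (-0.04, adjusted p = 0.958), and the pineal opsin gene exorh gave -0.03 (adjusted p = 0.944). With 3 counts at 0.253 to 0.351 CPM, the aanat2 row was low, and a moderate change could be missed. Of 8 non-visual photopigment genes tested, 0 were higher and 1 lower (12.5%, against 5.87% of all genes tested). It was rgrb, for a retinal G protein-coupled receptor (-0.38, adjusted p = 0.00686, or 0.0623 without mutant replicate 3). A further 20 of the 28 photopigment genes in the table were below the filter.

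Of the markers of other tissues, the photoreceptor and liver sums were lower in all mutants, and the neuron and muscle sums overlapped. The summed level of the 21 photoreceptor markers was 59.1 to 67.2 CPM in wildtype and 32.4 to 39.2 CPM in mutants, with 2 of 8 tested lower (crx and nr2e3), and 13 under the filter, among them rho at 0.205 to 1.87 CPM. Without crx the other 20 markers summed to 27.2 to 30.0 CPM in wildtype and 19.9 to 22.5 CPM in mutants. The 10 neuron markers summed to 1485 to 1541 and 1492 to 1500 CPM, with 3 of 10 lower (snap25b, gap43 and elavl4). The 12 muscle markers summed to 44545 to 49452 and 47607 to 48956 CPM, with 2 higher (acta1a and acta1b) and 1 lower (pvalb2). The 10 liver markers summed to 9698 to 11293 and 9077 to 9601 CPM, with 3 of 8 tested lower (tfa, ambp and apoa1a). The crx, nr2e3, snap25b, tfa and acta1a calls held under all 16 alternatives, and each of the other marker calls ended under at least 1. Called were 25% of the photoreceptor markers tested, 30% of neuron, 25% of muscle and 37.5% of liver markers, against 11.7% of all genes tested. In these marker lists 0 genes were at 0 in all 6 libraries. The part of tissue makeup in the clock gene values was not tested.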

How the data were processed

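RNA sequencing libraries of whole embryos were compared, 3 wildtype and 3 homozygous mutant. The authors deposited 1 table of expected counts per gene and library, not scaled between libraries. Per the submitters' processing notes, STAR, RSEM and DESeq2 were used with genome build danRer11; versions, the gene annotation and the strand setting are not given in the sources used here, so overlapping and antisense genes are uncertain. Columns were matched to samples by genotype and replicate number in the header. Of all values 18.8% were not whole (tolerance 0.005), as where reads are divided between rows.

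Expected counts were rounded and tested in R 4.3.3 with edgeR 4.0.16 (filterByExpr with minimum count 10, TMM factors, robust quasi-likelihood fit, Benjamini-Hochberg adjustment over 20229 genes, called at adjusted p under 0.05). Each SE was taken as the size of the log2 fold change over the root of its F statistic. SDs of log2 CPM used a pseudocount of 0.5. Read-sharing rows were sought as pairs with non-whole values that sum to whole numbers in every library (tolerance 0.011). Lists were matched by symbol. Alternatives were other scalings, filters, weights, a replicate block, each library left out, limma-voom (limma 3.58.1), DESeq2 1.42.0 and read-sharing rows summed. Named were all members, with every library's value where called or, at a mean of at least 5 CPM, where groups did not overlap, dnajc21, and called genes of each list; per2, per1b, cry1ba, cry5, tefa, nr1d2b, nr1d4a, cry-dash, lonrf1, ddb2, ercc1, aanat2 and other genes given without a call were described after their values were seen. The members and lists were chosen with earlier results of these data known. Symbols were matched to RefSeq assembly GRCz12tu for names and neighbours alone. Figures used Python 3.11.15 and matplotlib 3.10.9.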

Additional observations from a re-analysis of the deposited data

How the results depend on the processing

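The 6 calls among clock genes were 4 to 7 under the 10 alternative scalings, filters, tools, weights and sums, and 3 to 8 with 1 library left out. Calls of higher genes, 4 in all, ranged from 1 to 5 with 1 library left out. Those of lower genes, 2 in all, ranged from 1 to 5, and were 4 with no filter on low counts and 1 with DESeq2. Over all genes 2372 were called, 1507 by DESeq2 and 1242 to 2658 with 1 library left out, and in the pathway lists 21, with 8 to 23 when 1 library was left out. With the replicate block 7 clock genes were called, rorb being the addition. Deviations of same-numbered libraries correlated at -0.05, -0.003 and 0.02 over 20229 genes. Clutches are not named, so these values cannot show whether same-numbered libraries were paired. No called member changed direction. The cause of these differences was not tested. Depth limits the rows of nfil3-3, nfil3-4, rorc, nr1d4a, nr1d1 and per1a, at 32 counts or fewer per library. Promoter motifs of the clock genes were planned but not analysed here.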
